A study of Mus musculus with 9 samples.

Results

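The genes described here are 10 genes for secreted inflammatory mediators and their receptors, out of 53465 genes in the count table of mouse adult fibroblasts: the cytokines Lif, Il6, Il11, Il33, Csf1 and Tslp, the receptors Il1rl1 and Il6st, the receptor antagonist Il1rn and the pentraxin Ptx3. They were named as a set by gene symbol, and each matched 1 gene. The set was chosen by function and, for Ptx3 and Il1rn, selected on the size of their CPM changes between the groups of these libraries, so their values are given as a description, with no test. The other 8 genes were tested where their counts allowed it.

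RNA was sequenced from 3 libraries of mouse adult fibroblasts exposed to DPI for 72 h, 3 exposed for 24 h and 3 controls. DPI is read here as diphenyleneiodonium, an inhibitor of flavin-dependent enzymes, since the series concerns the flavin cofactor of respiratory complex I. The labels give no strain, age or genotype of the mice, no dose, no time of collection for the controls, and no word on a vehicle. In every comparison below, DPI and time in culture cannot be told apart. Separate cultures are not stated for the 3 libraries of a group either, and the p-values then cover the library-to-library spread only, which may be technical.

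Fibroblasts are a known source of cytokines that act on neighbouring immune and epithelial cells. Cytokines of the IL-6 family, such as LIF, IL-6 and IL-11, signal through a shared receptor chain, gp130, encoded by Il6st, and through JAK kinases and STAT3. In the IL-1 family, IL-33 acts through ST2, encoded by Il1rl1, which also exists as a secreted decoy, while the IL-1 receptor antagonist, encoded by Il1rn, occupies the IL-1 receptor without signalling. PTX3 is a soluble long pentraxin that binds microbes and complement, and many of these genes are known targets of the transcription factors NF-kappaB and AP-1.

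Total counts per library ranged from 15292736 to 17923656, and 14088 genes passed the filter on low counts and were tested. Control replicate 2 differed from control replicates 1 and 3, with 44.2 on the second principal component where they had 14.1 and 18, and with 4.95% of counts in ribosomal protein genes where they had 3.65% and 3.70%. Of 12 fibroblast markers, 9 were tested, and their summed level was 11627 to 13076 CPM (each library's counts brought to a common total, with TMM scaling) at 72 h, 13485 to 14146 CPM at 24 h and 7146 to 8633 CPM in controls. Lum, Thy1 and Fap, which mark fibroblasts in many tissues, were under 1 CPM, and Dcn averaged 1.12 CPM at 72 h, 3.52 CPM at 24 h and 1.32 CPM in controls, so the label rests mainly on the type I collagen, fibronectin and vimentin genes. Adgre1, Aif1 and Tyrobp of macrophages, Cpa3, Mcpt4 and Fcer1a of mast cells, Cd3e of T cells and Krt5 of keratinocytes had 0 counts in every library, but other markers of these cells were detected. Tested were 3 of 12 macrophage, 2 of 9 mast cell, 2 of 10 T cell and innate lymphoid, 3 of 10 keratinocyte and 3 of 9 endothelial markers, and no endothelial marker was at 0 throughout. Each of these lists summed to at most 10.3 CPM in any library. Adipocyte markers summed to 51.3 to 62.7 CPM at 72 h, 37.3 to 38.2 CPM at 24 h and 39.8 to 50.4 CPM in controls, with Adipoq, Lep and Cidec at 0.

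Levels were compared between genes per length, as TPM (reads per base of gene brought to a common total) computed from the exons of each gene. At 72 h, Il1rl1 at 151 ± 4.54 TPM and Csf1 at 144 ± 3.04 TPM led, with Ptx3 at 88.5 ± 5.78 TPM and Il6st at 76.6 ± 2.48 TPM after them (mean ± SD, n = 3). At 24 h, Il1rl1 stood first at 282 ± 2.82 TPM, ahead of Csf1 at 154 ± 7.89 TPM and Il6st at 87.6 ± 2.80 TPM, and Ptx3 was sixth at 13.6 ± 0.35 TPM. In controls, Csf1 at 150 ± 17.3 TPM and Ptx3 at 134.5 ± 13.7 TPM led, and their libraries overlapped. Il1rl1 at 97.9 ± 9.99 TPM and Il6st at 62.5 ± 15.6 TPM followed them.

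Lif and Il1rn were of middle level: Lif had 15.4 ± 0.83 TPM at 72 h, 27.7 ± 1.62 TPM at 24 h and 13.7 ± 0.49 TPM in controls, and Il1rn had 3.07 ± 0.36, 18.9 ± 2.69 and 8.58 ± 1.2 TPM in the same groups. When the longest transcript was used as the length, Il1rn came to 5.17, 31.9 and 14.5 TPM and then stood above Lif, at 23.3 TPM at 24 h and 11.5 TPM in controls, so the order of these 2 genes depends on the length. Il33 averaged 1.96 TPM at 72 h, 1.39 TPM at 24 h and 1.45 TPM in controls, and Il6, Il11 and Tslp were under 1 TPM on average in every group. In controls the libraries of Il33, Il11 and Il6 overlapped, so no order among them can be given.

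**Figure D1:**
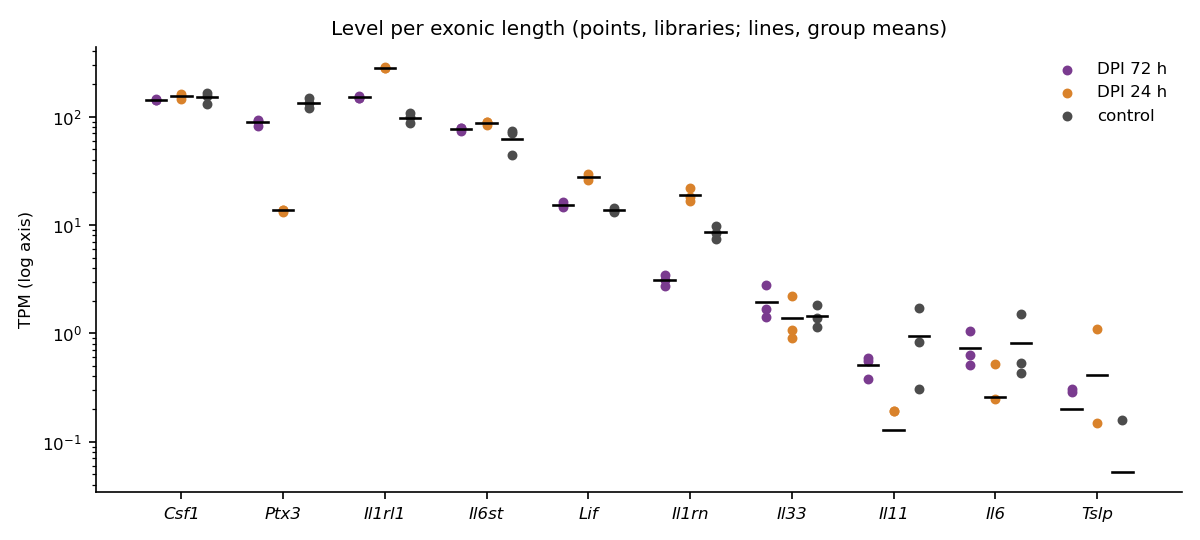
Level of the 10 genes in TPM on a log axis, 1 point per library, with a line at the mean of each group of 3; libraries at 0 are not drawn. Il1rl1, Csf1 and Il6st stay within the upper part of the scale in every group, while Ptx3 averages 13.6 TPM at 24 h, against 134.5 TPM in controls.

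The 10 genes together took 0.0917% to 0.0935% of counts at 72 h, 0.120% to 0.123% at 24 h and 0.0799% to 0.0897% in controls. Il1rl1 alone made up 33.8% to 35.5% of those counts at 72 h, 47.8% to 49.97% at 24 h and 24.4% to 26.3% in controls. Ptx3 made up 7.55% to 8.29% at 72 h, 0.876% to 0.940% at 24 h and 11.5% to 17.3% in controls. In bulk RNA, fewer cells expressing a gene and less RNA per cell cannot be told apart.

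Of the 5 genes that were tested and not picked for their change, Lif, Il1rl1 and Il6st were higher at 24 h than in controls and 0 were lower, beside 24.7% of all 14088 genes called in that comparison (12.4% higher, 12.3% lower). At 72 h against control, Il1rl1 alone of the 5 was higher, beside 8.56% of all genes called (4.73% higher, 3.83% lower). At 72 h against 24 h, Lif and Il1rl1 were lower, beside 21.3% of all genes called (10.1% higher, 11.2% lower). Genes were called at an adjusted p under 0.05 in edgeR's quasi-likelihood test, with Benjamini-Hochberg adjustment over all genes tested.

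**Figure D2:**
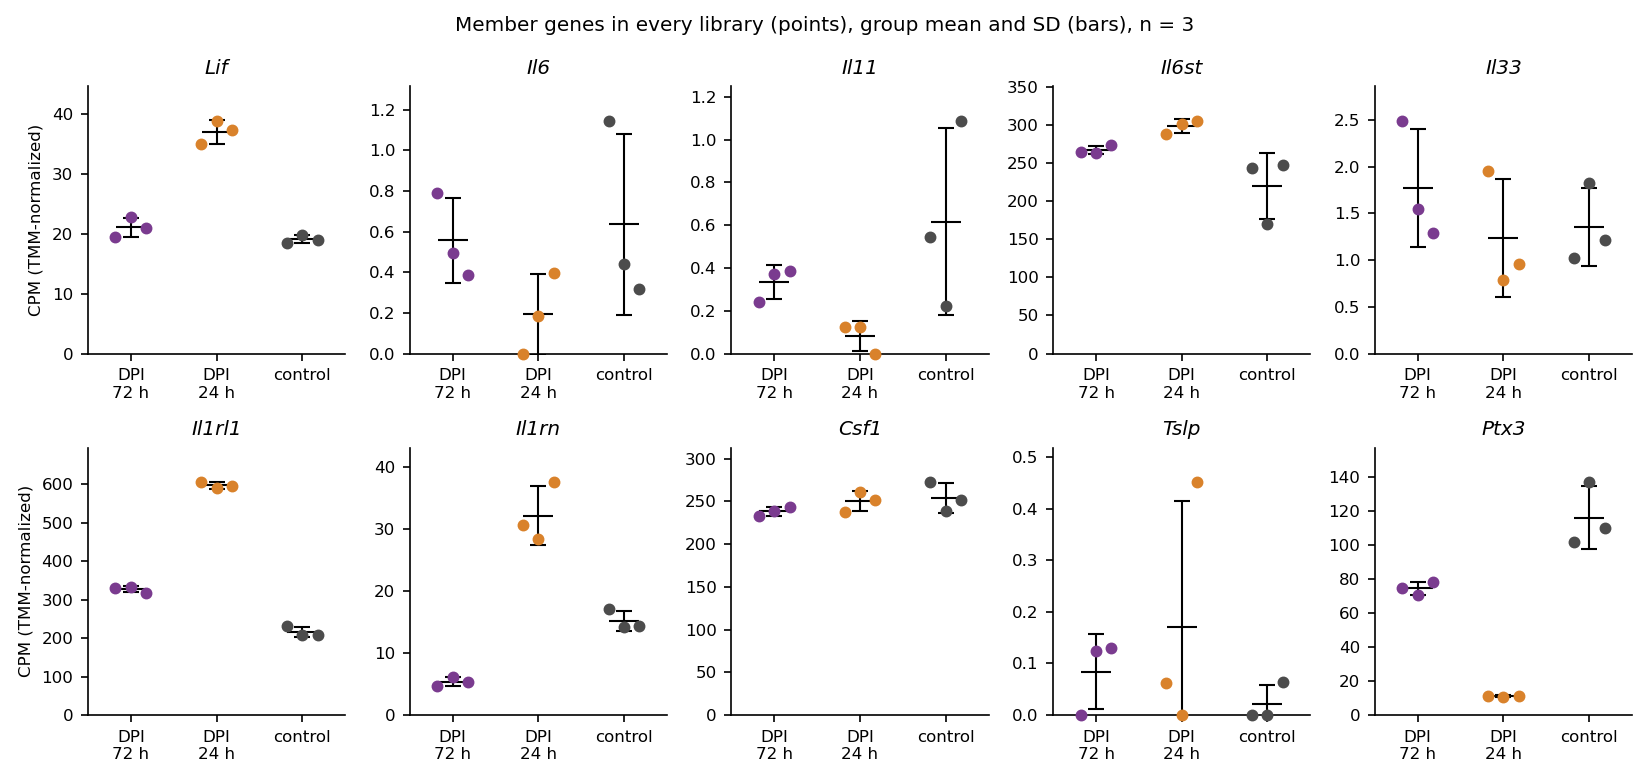
TMM-normalized CPM of the 10 genes in each library (points) at 72 h, at 24 h and in controls, with the mean and SD of each group of 3 (bars, cut off at 0). Lif and Il1rl1 are highest at 24 h with no overlap between 24 h and the other groups, and Ptx3 is lowest there, at 10.8 to 11.4 CPM.

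Lif, the leukemia inhibitory factor of the IL-6 family, lies at chr11:4257557-4272514 on the plus strand (GRCm38, as are all positions here). Its RefSeq promoter window (GRCm38.p6, chr11:4257318-4257617, plus strand) is shown because Lif was the cytokine of the set that passed the test and because its window holds both an AP-1 and a kappaB match. Capitals mark an AP-1 match (TGANTCA on either strand) with its first base at position -228 from the start and a kappaB match at position -178. AP-1 matches were found in 7.81% and kappaB matches in 8.46% of all 32817 windows.
Lif promoter: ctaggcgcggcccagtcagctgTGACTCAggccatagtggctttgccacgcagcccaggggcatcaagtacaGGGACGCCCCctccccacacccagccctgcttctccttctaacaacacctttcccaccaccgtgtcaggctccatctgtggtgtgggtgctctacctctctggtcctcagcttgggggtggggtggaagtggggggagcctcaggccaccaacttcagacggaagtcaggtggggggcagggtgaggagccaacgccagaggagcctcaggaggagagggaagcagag

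Lif had 19.5, 22.7 and 21.03 CPM at 72 h, 34.9, 38.9 and 37.3 CPM at 24 h and 18.5, 19.9 and 18.9 CPM in controls. The 24 h libraries lay above all others, while the 72 h libraries overlapped the controls. Lif was higher at 24 h by 0.95 on the log2 scale than in controls (95% interval 0.78 to 1.13, SE 0.08, adjusted p = 1.41e-05), a 1.94-fold difference. At 72 h the difference from controls was 0.14 (interval -0.04 to 0.32, adjusted p = 0.353), which did not pass the test. At 72 h Lif was lower than at 24 h by 0.81 on the log2 scale (log2 change -0.81, interval -0.99 to -0.64, adjusted p = 4.23e-05).

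Il6 and Il11 were near the limit of detection and did not pass the filter on low counts. Il6 had 13, 8 and 6 counts at 72 h, 0, 3 and 7 counts at 24 h and 19, 8 and 5 counts in controls, and the groups overlapped. Il11, a fibroblast cytokine linked to matrix production, had 4, 6 and 6 counts at 72 h, 2, 2 and 0 counts at 24 h and 9, 4 and 17 counts in controls. The 24 h libraries of Il11 lay below all controls and all 72 h libraries. With no filter on low counts, Il11 was lower at 24 h than in controls (log2 change -2.82, SE 0.97, adjusted p = 0.0312 over 27839 genes), and Il6 did not pass (log2 change -1.66, adjusted p = 0.184). A count of 0 allows up to 3 counts, which was 0.184 CPM for Il6 in DPI 24 h replicate 1 and 0.169 CPM for Il11 in DPI 24 h replicate 3. The Il6 window holds an AP-1 match and a kappaB match, and 1 of the 2 Il11 windows holds an AP-1 match.

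Il6st, the gp130 chain at chr13:112464070-112510086, had 265, 264 and 273 CPM at 72 h, 288, 302 and 306 CPM at 24 h and 243, 170 and 248 CPM in controls. All DPI libraries lay above the controls, and control replicate 2 was the lowest. Il6st was higher at 24 h than in controls by 0.44 on the log2 scale (interval 0.18 to 0.70, SE 0.12, adjusted p = 0.0196). Without control replicate 2 the 24 h difference was 0.28 (adjusted p = 3.48e-04), and the call was lost without DPI 24 h replicate 2 (adjusted p = 0.063) or replicate 3 (adjusted p = 0.070). At 72 h it differed from controls by 0.28 (interval 0.02 to 0.54, adjusted p = 0.187) and from 24 h by -0.16 (interval -0.42 to 0.10, adjusted p = 0.389), neither past the threshold. Without control replicate 2, the 72 h difference from controls was 0.12 (adjusted p = 0.0819). Without that library, the difference between 72 h and 24 h did pass, at the same size of -0.16 (adjusted p = 0.0068). None of the motifs searched was in the Il6st window.

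Of 14 other ligands and receptors of the IL-6 family, 7 were tested, and 2 were higher and 0 lower at 24 h, beside 24.7% of all genes called, with a median log2 change of 0.08, against -0.0056 over all genes. These were Clcf1, a ligand of the ciliary neurotrophic factor receptor, at 44.4 CPM at 24 h and 36.4 CPM in controls (log2 change 0.28, adjusted p = 0.0230), and Il6ra, the IL-6 binding chain, at 17.3 CPM at 24 h and 11.2 CPM in controls (log2 change 0.63, adjusted p = 0.0115). The Clcf1 call was lost without control replicate 1, DPI 24 h replicate 2 or DPI 24 h replicate 3. At 72 h, 1 was higher and 0 lower than in controls, beside 8.56% of all genes called (median 0.03), again Clcf1, at 49.96 CPM (log2 change 0.46, adjusted p = 0.0041). Compared with 24 h, 0 were higher and 1 lower at 72 h (median -0.23), beside 21.3% of all genes called. The lower one was Il6ra, at 11.5 CPM at 72 h (log2 change -0.60, adjusted p = 0.0168). Its call was lost without DPI 24 h replicate 2 or 3 or DPI 72 h replicate 1 or 2.

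Among 19 JAK-STAT signalling genes and their SOCS inhibitors, all tested, 2 were higher and 3 lower at 24 h than in controls (median 0.02). Of all genes, 24.7% were called in that comparison, 12.4% higher and 12.3% lower. The lower ones were 5 when control replicate 2 was left out. They were 1 when DPI 24 h replicate 2 was left out, which also left 1 higher. Socs5, a suppressor of cytokine signalling, was higher at 24 h, at 147 CPM against 87.6 CPM in controls (log2 change 0.75, adjusted p = 5.99e-06), and lower at 72 h than at 24 h, at 100.1 CPM (log2 change -0.55, adjusted p = 4.96e-05). Against control, 0 were higher and 1 lower at 72 h (median 0.07, 2 higher without control replicate 2), beside 8.56% of all genes called. At 72 h against 24 h, 2 were higher and 2 lower (median 0.05), beside 21.3% of all genes called. Socs6 was among the higher ones, at 70.7 CPM at 72 h and 56.9 CPM at 24 h (log2 change 0.31, adjusted p = 0.0132), a call lost without DPI 24 h replicate 2, DPI 24 h replicate 3 or DPI 72 h replicate 2. The count of 2 higher at 72 h against 24 h was 4 when control replicate 2 was left out, 0 when DPI 24 h replicate 2 was, and 1 when DPI 24 h replicate 1 or 3 or DPI 72 h replicate 1 or 2 was.

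Of 20 genes known as STAT3 targets, 14 were tested. Against control, 6 were higher and 2 lower at 24 h (median 0.32, 1 lower without DPI 24 h replicate 1). Of all genes, 12.4% were higher and 12.3% lower at 24 h. At 72 h against control, 5 were higher and 1 lower (median 0.17, 3 higher without DPI 72 h replicate 1). Of all genes, 4.73% were higher and 3.83% lower at 72 h. Fosl1, an AP-1 subunit, was higher at both times, at 56.8 CPM at 72 h and 57.8 CPM at 24 h, against 34.7 CPM in controls (log2 change 0.71 at 72 h, adjusted p = 2.66e-05, and 0.73 at 24 h, adjusted p = 8.84e-06). Ccnd1, which encodes cyclin D1, was likewise higher, at 368 CPM at 72 h and 363 CPM at 24 h, against 248.7 CPM in controls (log2 change 0.57, adjusted p = 1.51e-04, and 0.54, adjusted p = 8.82e-05). Vegfa, the endothelial growth factor, changed in opposite directions: it was higher at 72 h, at 126 CPM, and lower at 24 h, at 50.8 CPM, against 93.5 CPM in controls (log2 change 0.43, adjusted p = 0.0014, and -0.88, adjusted p = 5.12e-06). Compared with 24 h, 3 targets were higher and 3 lower at 72 h (median -0.08), beside 10.1% and 11.2% of all genes. The 3 higher were 1 without DPI 24 h replicate 1, DPI 24 h replicate 3 or DPI 72 h replicate 1.

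Il1rl1, the ST2 receptor, was the gene of the set with the most counts at 24 h. It lies at chr1:40429570-40465415 on the plus strand, within the cluster of IL-1 receptor genes, between Il1rl2 and Il18r1. Over the 9 libraries it had 56734 counts, beside 2631 for Il1r1 and 2741 for Il18rap in the same cluster, while Il1r2 had 0, Il1rl2 had 2 and Il18r1 had 25. RefSeq gives 2 starts for it in mouse, a distal and a proximal one, both shown because counts per gene do not tell which was used. Membrane and secreted forms could not be told apart either. None of the motifs searched was in either window, so neither carries capitals (GRCm38.p6, plus strand, chr1:40429320-40429619 for the distal and chr1:40439379-40439678 for the proximal start). The motifs were AP-1, CRE (TGACGTCA), C/EBP-ATF (TGATGNAA), STAT (TTCNNNGAA), an interferon-response element (GAAA, any 2 bases, then GAAA), the core box TATAAA and kappaB.
Il1rl1 distal promoter: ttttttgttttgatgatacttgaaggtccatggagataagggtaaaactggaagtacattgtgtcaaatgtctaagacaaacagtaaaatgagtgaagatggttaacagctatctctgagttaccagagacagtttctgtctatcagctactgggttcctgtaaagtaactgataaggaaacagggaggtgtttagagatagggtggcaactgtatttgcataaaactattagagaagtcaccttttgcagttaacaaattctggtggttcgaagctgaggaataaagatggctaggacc
Il1rl1 proximal promoter: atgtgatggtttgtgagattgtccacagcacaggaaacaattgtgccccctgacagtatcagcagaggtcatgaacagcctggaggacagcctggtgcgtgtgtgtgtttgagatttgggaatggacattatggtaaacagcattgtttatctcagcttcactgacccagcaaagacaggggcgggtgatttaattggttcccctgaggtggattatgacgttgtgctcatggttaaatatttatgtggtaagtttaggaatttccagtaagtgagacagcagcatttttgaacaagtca

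Il1rl1 had 330, 332 and 318 CPM at 72 h, 605, 589 and 596 CPM at 24 h and 232, 208 and 208 CPM in controls. The 3 groups did not overlap, with 24 h highest, 72 h between and controls lowest. It was higher at 24 h than in controls by 1.47 on the log2 scale (interval 1.33 to 1.60, SE 0.06, adjusted p = 9.64e-08), a 2.76-fold difference, and higher at 72 h by 0.60 (interval 0.47 to 0.73, adjusted p = 1.12e-04). At 72 h it was lower than at 24 h (log2 change -0.87, interval -1.0 to -0.74, adjusted p = 3.53e-06). These 3 calls held under every alternative and with each library left out in turn. Macrophages, mast cells and T cells can express ST2, and their marker lists, of which few genes were tested, had the low sums given above. Whether such cells added to the Il1rl1 counts was not tested.

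Il33, the ligand of ST2, was low throughout, with 2.49, 1.54 and 1.29 CPM at 72 h, 1.96, 0.792 and 0.958 CPM at 24 h and 1.03, 1.82 and 1.22 CPM in controls. The groups overlapped in every comparison. The differences were 0.39 at 72 h (interval -0.57 to 1.34, adjusted p = 0.664) and -0.14 at 24 h (interval -1.11 to 0.83, adjusted p = 0.856) against controls. Between 72 h and 24 h the difference was 0.52 (interval -0.44 to 1.48, adjusted p = 0.451). These intervals reach a log2 change of 1 or -1, so a change of that size is not excluded, and the SD of Il33 was 31% to 51% of the mean within groups. Both Il33 windows hold a TATA match, which 13.6% of all windows do. Its first base is at position -203 from the start in 1 window and at -29 in the other.

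Il1rn, the receptor antagonist at chr2:24336853-24351494, has 3 RefSeq starts. The first window (GRCm38.p6, chr2:24336610-24336909, plus strand) is shown because it holds an AP-1 match, in capitals, with its first base at position -141 from the start. Of the 3 windows, 1 holds an AP-1 match and 1 a TATA match. Counts per gene do not tell which start was used.
Il1rn promoter: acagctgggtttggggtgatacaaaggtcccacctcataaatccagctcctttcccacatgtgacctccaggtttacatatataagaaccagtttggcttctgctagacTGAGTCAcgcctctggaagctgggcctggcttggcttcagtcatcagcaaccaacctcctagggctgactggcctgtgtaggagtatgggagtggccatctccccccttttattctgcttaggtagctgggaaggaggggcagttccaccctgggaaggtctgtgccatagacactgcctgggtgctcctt

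Il1rn had 4.62, 6.12 and 5.35 CPM at 72 h, 30.6, 28.3 and 37.5 CPM at 24 h and 17.1, 14.2 and 14.3 CPM in controls. The 3 groups did not overlap, and the 2 times lay on opposite sides of the controls. The fitted log2 change was -1.50 at 72 h and 1.08 at 24 h against controls, and -2.58 at 72 h against 24 h. As folds, Il1rn was 2.83-fold lower at 72 h and 2.12-fold higher at 24 h. The cytokines it blocks had few counts: Il1a had 18 counts and Il1b 1 count over all 9 libraries.

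The rest of the IL-1 family was mostly not measurable. Of 19 further ligands, receptors and processing genes, 6 were tested. At 24 h, 3 were higher and 1 lower than in controls (median 0.20), beside 24.7% of all genes called. Il1rap, the shared accessory chain of the IL-1 and ST2 receptors, had 52.7 CPM at 24 h and 28.9 CPM in controls (log2 change 0.87, adjusted p = 5.50e-05), and at 72 h fell to 36.3 CPM, against 52.7 CPM at 24 h (log2 change -0.54, adjusted p = 0.0014). Il18rap, the IL-18 receptor accessory chain, was higher at both times, at 22.5 CPM at 72 h and 21.5 CPM at 24 h, against 11.5 CPM in controls (log2 change 0.97, adjusted p = 0.0015, and 0.91, adjusted p = 0.0011). Casp4, an inflammatory caspase, was lower at both, at 3.11 CPM at 72 h and 4.65 CPM at 24 h, against 7.28 CPM in controls (log2 change -1.22, adjusted p = 0.0016, and -0.64, adjusted p = 0.0222). The 24 h call of Casp4 was lost without control replicate 1, DPI 24 h replicate 1 or DPI 24 h replicate 3. Relative to control, 2 were higher and 1 lower at 72 h (median 0.11), beside 8.56% of all genes called. At 72 h against 24 h, 0 were higher and 2 lower (median 0.0059), beside 21.3% of all genes called. With single libraries left out, the 24 h count of 1 lower ran from 0 to 2. The Il1rap call at 72 h (log2 change 0.33, adjusted p = 0.0459) and the Casp4 call at 72 h against 24 h (log2 change -0.58, adjusted p = 0.0479) were each lost when any 1 of 7 libraries was left out.

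Of 18 genes that carry the signal of the IL-1 receptor, 17 were tested: 1 was higher and 2 lower at 24 h (median -0.04, 5 lower without control replicate 2 and 0 to 2 higher with single libraries left out), and 0 were higher and 2 lower at 72 h (median -0.10, 1 to 3 lower), both against control, beside 24.7% and 8.56% of all genes called at those times. Ikbkg, the regulatory subunit of the IkappaB kinase, was lower at both times, at 84.4 CPM at 72 h and 66.3 CPM at 24 h, against 112 CPM in controls (log2 change -0.41, adjusted p = 0.0013, and -0.76, adjusted p = 8.89e-06). Mapk9, a JNK kinase, had 66.4 CPM at 24 h and 84.1 CPM in controls (log2 change -0.34, adjusted p = 0.0023). Compared with 24 h, 3 were higher and 2 lower at 72 h (median -0.07), beside 21.3% of all genes called. With single libraries left out, 5 were lower without control replicate 2 and otherwise 1 or 2. Ikbkb, a catalytic subunit of the same kinase, was among the lower ones, at 66.3 CPM at 72 h and 82.2 CPM at 24 h (log2 change -0.31, adjusted p = 0.0039).

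Csf1, the macrophage colony-stimulating factor at chr3:107741048-107760469 on the minus strand, had 233, 239 and 243 CPM at 72 h, 238, 261 and 251 CPM at 24 h and 272, 238 and 252 CPM in controls. The groups overlapped. Its differences were small with narrow intervals: -0.09 at 72 h (interval -0.23 to 0.05, adjusted p = 0.464) and -0.02 at 24 h (interval -0.17 to 0.12, adjusted p = 0.843) against controls, and -0.07 at 72 h against 24 h (interval -0.21 to 0.08, adjusted p = 0.519). Its window holds a kappaB match, as does that of Lif, whose level at 24 h did differ. Tslp, an epithelial cytokine, had 0, 2 and 2 counts at 72 h, 1, 0 and 8 counts at 24 h and 0, 0 and 1 count in controls, and the groups overlapped. With no filter on low counts, its differences did not pass (log2 change 2.70, SE 1.71, adjusted p = 0.390 at 24 h against control).

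Of 15 partners of CSF1 and TSLP and related growth factors, 8 were tested. At 24 h, 1 was higher and 0 lower than in controls (median 0.11), beside 24.7% of all genes called. Il34, which encodes the other ligand of the CSF1 receptor, was the one that was higher. It had 9.47, 10.3 and 8.19 CPM at 72 h, 19.1, 20.8 and 19.8 CPM at 24 h and 5.79, 4.58 and 4.22 CPM in controls. The 3 groups did not overlap, in the same order as Il1rl1. Il34 was higher by 2.03 on the log2 scale at 24 h (adjusted p = 3.51e-06) and by 0.94 at 72 h (adjusted p = 0.0019), and lower at 72 h than at 24 h (log2 change -1.09, adjusted p = 2.09e-04). Relative to control, 1 was higher and 1 lower at 72 h (median -0.18), beside 8.56% of all genes called. At 72 h against 24 h, 0 were higher and 3 lower (median -0.28), beside 21.3% of all genes called. Tgfb1, transforming growth factor beta, had 13.1 CPM at 72 h, 20.6 CPM at 24 h and 17.5 CPM in controls (log2 change -0.42 at 72 h against control, adjusted p = 0.0246, a call lost without control replicate 3 or DPI 72 h replicate 2 or 3, and -0.65 against 24 h, adjusted p = 8.89e-04). Il7 had 1.72 CPM at 72 h and 3.30 CPM at 24 h (log2 change -0.94, adjusted p = 0.0407), and this call was lost when any 1 of 6 libraries was left out.

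Ptx3 lies at chr3:66219910-66225805 on the plus strand, and its promoter window (GRCm38.p6, chr3:66219637-66219936, plus strand) is shown because it was the member with the largest fold. Capitals mark 2 overlapping kappaB matches at the start itself, the first beginning at position -1.
Ptx3 promoter: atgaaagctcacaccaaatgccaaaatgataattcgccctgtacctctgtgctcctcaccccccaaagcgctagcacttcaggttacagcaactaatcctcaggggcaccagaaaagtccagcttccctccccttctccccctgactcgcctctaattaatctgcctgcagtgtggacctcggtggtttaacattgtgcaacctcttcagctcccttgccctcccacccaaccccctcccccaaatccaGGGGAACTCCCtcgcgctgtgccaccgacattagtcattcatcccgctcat

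Ptx3 had 74.9, 70.7 and 78.0 CPM at 72 h, 11.4, 10.8 and 11.4 CPM at 24 h and 102, 137 and 110 CPM in controls. In raw counts these were 1233, 1145 and 1210 at 72 h, 186, 177 and 203 at 24 h and 1685, 2483 and 1721 in controls, so depth did not limit them. The 3 groups did not overlap, with 24 h lowest and 72 h below the controls. The fitted log2 change was -3.37 at 24 h, a 10.4-fold lower level, and -0.64 at 72 h, a 1.56-fold lower level. At 72 h it was 6.65-fold higher than at 24 h (log2 change 2.73). Control replicate 2 had the highest Ptx3 value, and without it the log2 changes were -3.24 at 24 h and -0.50 at 72 h. Of the 7 genes with a fitted value, Ptx3 was the one whose 24 h libraries lay below all other libraries. Il11, which did not pass the filter on low counts, had the same order, near the limit of detection.

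**Figure D3:**
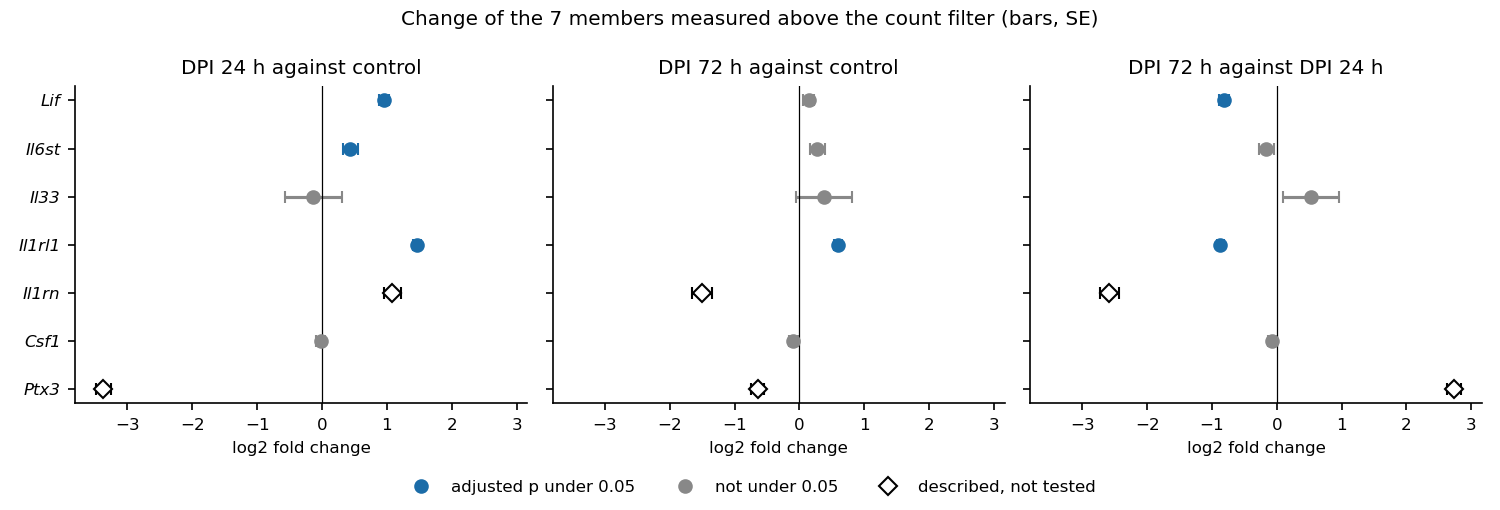
Fitted log2 change (points) with its SE (bars) for the 7 genes that passed the filter on low counts, in the 3 comparisons. These are 24 h against control, 72 h against control and 72 h against 24 h. Ptx3 and Il1rn are drawn as a description. At 24 h Ptx3 is at -3.37 while Il1rl1, Il1rn and Lif are at 1.47, 1.08 and 0.95.

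Of 19 other pentraxins and known partners of PTX3, 7 passed the filter on low counts and were tested. At 24 h, 1 was higher and 0 lower than in controls (median 0.61), beside 24.7% of all genes called. Without control replicate 1, 2 were higher. Tlr4, the endotoxin receptor, had 31.8 CPM at 24 h and 23.2 CPM in controls (log2 change 0.46, adjusted p = 0.0089), and 23.7 CPM at 72 h (log2 change -0.42 against 24 h, adjusted p = 0.0152, lost without DPI 24 h replicate 2 or 3 or DPI 72 h replicate 1 or 2). At 72 h, 1 was higher and 1 lower than in controls (median 0.23), beside 8.56% of all genes called. Without DPI 72 h replicate 1 or 2, 0 were lower. Nptxr, the neuronal pentraxin receptor, was higher, at 58.1 CPM at 72 h and 44.1 CPM in controls (log2 change 0.40, adjusted p = 0.0035). Between 72 h and 24 h, 1 was higher and 2 lower (median -0.42), beside 21.3% of all genes called. Without DPI 24 h replicate 2 or 3 or DPI 72 h replicate 1 or 2, 1 was lower.

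The NF-kappaB genes were read beside Ptx3, Lif, Il6 and Csf1, whose windows hold kappaB matches, as 8.46% of all windows do. At 24 h against control, Lif was higher, Csf1 was not called and Il6 did not pass the filter. Ptx3 was lower, given only as a description since it was picked for its change. Whether NF-kappaB acted on these members was not tested. Of 14 subunits and inhibitors, 13 were tested, 7 were higher and 0 lower at 24 h than in controls, with a median log2 change of 0.37, against -0.0056 over all genes and 12.4% of all genes higher. Tnfaip3, the A20 inhibitor, had 37.8 CPM at 24 h and 19.6 CPM in controls (log2 change 0.95, adjusted p = 3.93e-05). Nfkbie, an IkappaB inhibitor, had 14.1 CPM at 24 h and 7.61 CPM in controls (log2 change 0.89, adjusted p = 9.80e-04), and Nfkb2, a precursor subunit, had 169 CPM at 24 h and 122 CPM in controls (log2 change 0.46, adjusted p = 2.03e-04). At 72 h, 1 was higher and 1 lower than in controls (median -0.12), beside 8.56% of all genes called. Each was between 0 and 2 with single libraries left out. Between 72 h and 24 h, 0 were higher and 10 lower (median -0.41), beside 11.2% of all genes lower, and 6 were lower without DPI 24 h replicate 2. Between these times the log2 changes were -1.07 for Tnfaip3, -1.38 for Nfkbie and -0.64 for Nfkb2 (adjusted p = 1.75e-05, 6.03e-05 and 1.91e-05).

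Of 27 known NF-kappaB targets, members left out, 17 were tested. At 24 h, 9 were higher and 1 lower than in controls (median 0.38), beside 12.4% and 12.3% of all genes. With single libraries left out, 7 to 9 were higher and 0 to 1 lower. Nfkbia, Nfkbie and Tnfaip3 stand in both NF-kappaB lists. Vcam1, an adhesion receptor for leukocytes, had 154 CPM at 24 h and 87.4 CPM in controls (log2 change 0.81, adjusted p = 2.36e-06). Ccl2, a monocyte chemokine, had 5.53, 6.73 and 9.55 CPM at 72 h, 33.4, 35.1 and 33.2 CPM at 24 h and 14.4, 18.6 and 14.8 CPM in controls. Its groups did not overlap and lay in the order of Il1rn: it was higher at 24 h (log2 change 1.09, adjusted p = 6.39e-04) and lower at 72 h (log2 change -1.14, adjusted p = 0.0019).

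At 72 h against control, 0 of the 17 targets were higher and 5 lower (median -0.23), beside 3.83% of all genes lower. Cxcl10, an interferon-induced chemokine, had 20.1 CPM at 72 h, 67.4 CPM at 24 h and 55.5 CPM in controls (log2 change -1.46 at 72 h, adjusted p = 6.18e-06). Its 24 h call (log2 change 0.28, adjusted p = 0.0433) was lost when any 1 of 6 libraries was left out. At 72 h against 24 h, 1 target was higher and 13 lower (median -1.02), beside 10.1% and 11.2% of all genes. With each library left out, 12 to 13 were lower and 0 to 1 higher. Ccl2 was at -2.22, Cxcl10 at -1.74 and Vcam1 at -0.96 in that comparison (adjusted p = 7.17e-06, 7.88e-07 and 8.04e-07). The fibroblast markers moved in the same comparisons. Against controls, 9 of 9 were higher at 24 h and 4 of 9 at 72 h, with medians of 0.88 and 0.37. Of all genes, 12.4% and 4.73% were higher at those times. At 72 h against 24 h, 4 of 9 were lower (1 higher, median -0.59), beside 11.2% of all genes lower. With single libraries left out, 7 to 9 markers were higher at 24 h, and 4 to 6 markers were lower at 72 h than at 24 h. Their part in these results was not tested.

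**Figure D4:**
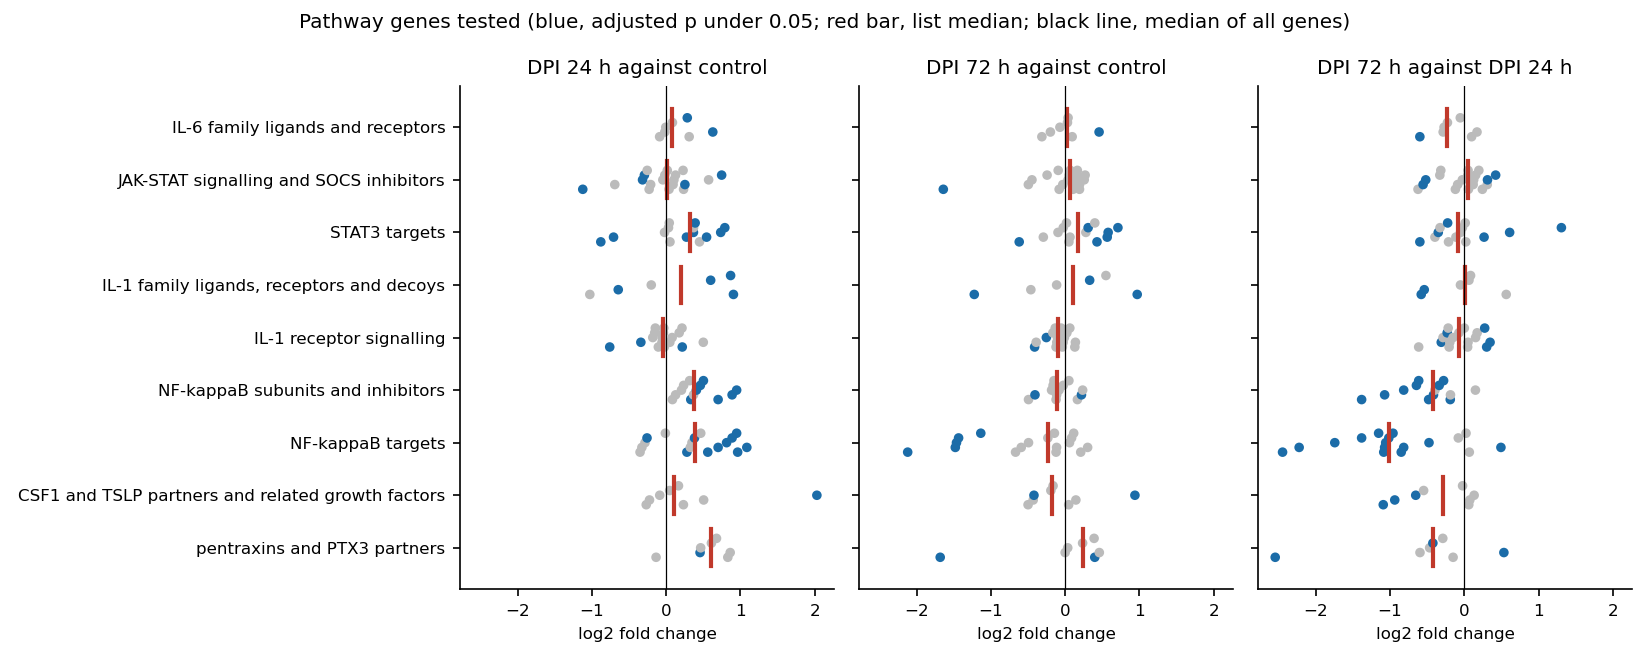
Log2 change of each tested gene of the 9 pathway lists (points, blue where the adjusted p is under 0.05) with the list median (red) and the median of all genes (black line) in the 3 comparisons. The NF-kappaB lists have medians of 0.37 and 0.38 at 24 h against control and of -0.41 and -1.02 at 72 h against 24 h.

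The genes whose pattern was most like that of Ptx3 were ranked by the root mean square difference of log2 CPM, each gene centred on its own mean over the 9 libraries, among 9889 genes with a mean of at least 5 CPM. The closest was Cth, cystathionine gamma-lyase, at a difference of 0.20, against a median of 1.47 over the genes searched. Cth averaged 73.7 CPM at 72 h, 10.6 CPM at 24 h and 86.4 CPM in controls. Angptl6, an angiopoietin-like secreted factor, followed at 0.26 with 8.14, 1.61 and 18.1 CPM in the same groups. Ugt1a6a at 0.35 and Acot2 at 0.42 came next, but Ugt1a6a shares exons with its family and Acot2 has the near-identical copy Acot1, so both are uncertain.

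For Il1rn the closest genes were Hlf, a PAR bZIP transcription factor, at 0.28, Ccl2 and Akap12, a scaffold of protein kinase A, at 0.30 each, and Mgp, the matrix Gla protein, at 0.31, against a median of 1.06. Hlf averaged 8.02 CPM at 72 h, 36.1 CPM at 24 h and 17.0 CPM in controls. Akap12 averaged 8.82, 36.8 and 16.6 CPM, and Mgp 6.76, 25.5 and 12.8 CPM, in the same groups. All 4 were thus highest at 24 h and lowest at 72 h, which is how they were chosen.

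**Figure D5:**
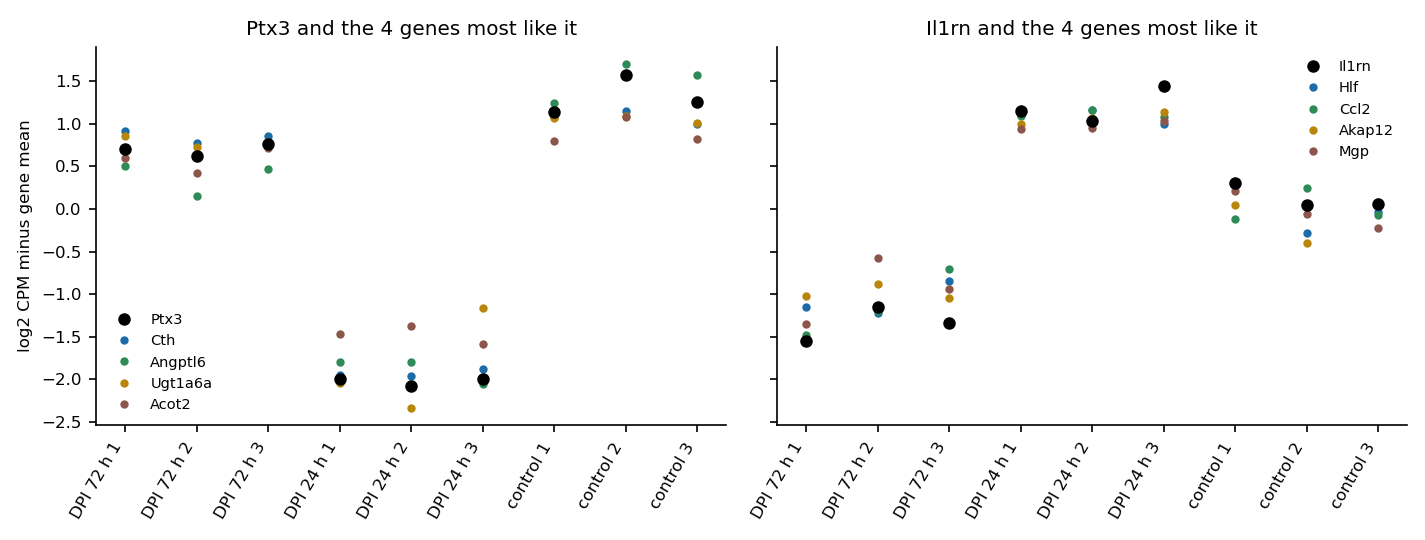
Centred log2 CPM of Ptx3 with its 4 most alike genes and of Il1rn with its 4, in each of the 9 libraries. The genes shown with Ptx3 are lowest at 24 h, and those shown with Il1rn are highest at 24 h and lowest at 72 h.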

How the data were processed

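Column-extracted total RNA of mouse adult fibroblasts was made into TruSeq libraries and read on a HiSeq sequencer, per the labels' protocols. STAR, RSEM, Trim Galore, cutadapt, edgeR, limma and GRCm38 are named in the submitters' processing notes, with no version or role. Strand setting, annotation release and rounding: not given in the sources used here. No member shares an exon with another annotated gene. The authors deposited raw counts per Ensembl gene. Their second table, of 17722 genes, held 159498 values, all equal to those counts, and gave no separate normalization.

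Members, gene lists and tests were chosen with earlier results of these data known. Genes were filtered with filterByExpr by group, scaled by TMM (factors 0.98 to 1.02) and fitted with all 9 libraries and 1 mean per group in edgeR 4.0.16 (R 4.3.3; glmQLFit, glmQLFTest, two-sided), adjusted by Benjamini-Hochberg over 14088 genes. The fit was tested on simulated data. Of the members 7 passed the filter; Il6, Il11 and Tslp did not. Per pathway list, the 3 genes with the smallest p and an adjusted p under 0.05 in any comparison were named, and for Ptx3 and Il1rn the 4 genes most alike (prior count 2). List counts include genes that this rule picks but that are not reported here. TPM used GENCODE exon lengths. RefSeq (GRCm38.p6) promoter windows matched 9 of 10 members and were searched on both strands; overlapping matches of 1 motif were kept. Positions are those of GENCODE on GRCm38. Intervals are 95% intervals, and limits for a count of 0 cover counting error only. Library pairs within a group differed beyond counting noise (chi-square per degree of freedom 3.62 to 31.3), and all were kept as separate libraries. With 3 libraries a group, the smallest exact permutation p of a single value is 0.1. The alternatives tried were RLE and upper quartile scaling, no filter or a filter of 10 counts, DESeq2 1.42.0, voom in limma 3.58.1, a fit of just the compared groups, a block for replicate number, leaving out single libraries, and the longest transcript as length.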

Additional observations from a re-analysis of the deposited data

Results flagged for a closer look

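The effects of the 2 exposure times differed in direct tests of 72 h against 24 h (edgeR, Benjamini-Hochberg over all genes tested), given here as the log2 change at 72 h minus that at 24 h. Among the members, these were Lif at -0.81 and Il1rl1 at -0.87. For Il1rn the difference was -2.58. It was not tested, since Il1rn was picked for its change, and is given as a description. The 24 h libraries of Il1rn lay above all controls and the 72 h libraries below them.

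In the IL-6 and JAK-STAT lists, the differences were Il6ra at -0.60, Socs5 at -0.55 and Socs6 at 0.31, and among STAT3 targets Vegfa at 1.31. In the IL-1 lists, they were Il1rap at -0.54, Casp4 at -0.58, Ikbkg at 0.35, Mapk9 at 0.30 and Ikbkb at -0.31. In the NF-kappaB lists, they were Tnfaip3 at -1.07, Nfkb2 at -0.64, Nfkbie at -1.38, Cxcl10 at -1.74, Vcam1 at -0.96 and Ccl2 at -2.22. Among growth factors and pentraxin partners, they were Il34 at -1.09, Tgfb1 at -0.65, Il7 at -0.94, Nptxr at 0.53 and Tlr4 at -0.42. The differences of Casp4, Il7, Il6ra, Socs6 and Tlr4 each missed the threshold when some single libraries were left out, that of Casp4 for 7 of the 9 libraries and that of Il7 for 6, and that of Casp4 also under a replicate block.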

How the results depend on the processing

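No called value of a member or named gene changed direction. The calls of Lif and Il1rl1 held under every setting. The members called at 72 h against control were 2 with no filter on low counts (Il6st joined, adjusted p = 0.0169). At 24 h against control they were 4 in that setting, with Il11 joining as lower (adjusted p = 0.0312). Fitting only the 2 groups compared gave 774 genes called at 72 h against control, against 1206, and 4660 at 72 h against 24 h, against 3001; there Il6st at 24 h missed the threshold (log2 change 0.43, adjusted p = 0.051) and passed it at 72 h against 24 h (-0.15, adjusted p = 0.0116). With each library left out in turn, 2351 to 4419 genes were called at 24 h, 736 to 1965 at 72 h and 1953 to 4729 at 72 h against 24 h; the highest value of each came without control replicate 2, and the cause was not tested. A replicate block kept the members called at 3, 1 and 2 and gave 3000, 911 and 2533 genes called in the 3 comparisons; under it Cxcl10 at 24 h, Il1rap and Tgfb1 at 72 h, and Casp4 at 72 h against 24 h missed the threshold. Libraries with the same number did not deviate together (correlations -0.092 to 0.0027). Deviations from means of 3 libraries cannot show whether such libraries were handled together, so a pairing is left undecided. Counts of at most 19 per library limit Il6, Il11 and Tslp, and Il33 has wide intervals.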
